A study of Mus musculus with 2 samples.

Results

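The neurons described here were chosen from 2 single-cell RNA libraries of mouse cerebral cortex with a rule written for layer 6 corticothalamic neurons. A barcode was selected when it held at least 5 unique molecular identifiers (UMIs, each a counted RNA molecule) of Hs3st4, at least 1 UMI of 2 or more of the 4 genes Syt6, Col5a1, Htr1f and Tle4, at least 1 UMI of Slc17a7 and at most 1 UMI of Gad1 and Gad2 together. It also had to hold at least 1000 UMIs and 500 genes with at most 10% mitochondrial UMIs. The rule selected 1408 of the 17653 barcodes that passed these limits, 896 of 9540 in the Control library and 512 of 8113 in the WMI (white matter injury) library. The counts of these genes chose the neurons, so their levels in them are a description. The data went against the label for a large part of the set. Syt6, Col5a1 and Foxp2 were highest together in one group of 518 barcodes, and the whole set is therefore called the Hs3st4-selected neurons below.

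The study compared injured with control cortex of C57BL/6 mice. Both libraries came from mice labelled 2 weeks old. The labels give ligation of the right common carotid artery on postnatal day 7 with 1 h of hypoxia, and collection on postnatal day 14 of the ligated cortex of the injured group and of the same-side cortex of the control group. The paper's methods give younger ages, a longer hypoxia and trypsin-dissociated cells where the labels speak of nuclei, and its results describe a control side. There was 1 library per group, with no replicate to measure the spread between mice, so no difference below was tested, and every interval covers counting error only. No genotype or drug distinguished the groups. The labels do not give the number of mice behind each library.

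Layer 6 corticothalamic neurons are glutamatergic neurons of the deepest cortical layer that send axons to the thalamus and branches to layer 4. They carry the transcription factors Foxp2, Tbr1 and Sox5 during development, and the transcriptional corepressor Tle4 is needed for their identity. Other deep neurons share some of these genes, among them layer 6b neurons, near-projecting neurons of layers 5 and 6 and layer 6 neurons that project within the cortex. Hs3st4 encodes a 3-O-sulfotransferase of heparan sulfate, Syt6 a synaptotagmin, Col5a1 a chain of collagen V and Htr1f a serotonin receptor. In the GENCODE M21 annotation of GRCm38, Hs3st4 spans 123982869 to 124398989 on chromosome 7, Syt6 spans 103575231 to 103645569 on chromosome 3 and Foxp2 spans 14901349 to 15441977 on chromosome 6.

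The Control library held 66470806 UMIs in 10288 barcodes and the WMI library 60568639 UMIs in 8354 barcodes. Selected neurons were deep, with a median of 11021.5 UMIs in Control and 12307.5 in WMI, against 4621 and 5982.5 in the other excitatory barcodes (Slc17a7 with at most 1 Gad UMI, not selected). Both the total of 5 Hs3st4 UMIs and the detection of 4 further genes depend on depth. Of the 36 barcodes found in both libraries, 4 were selected in at least one library and 1 in both. Doublet simulation marked 125 selected neurons (14.0%) in Control and 58 (11.3%) in WMI, above the 8.23% and 6.68% of all passing barcodes.

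The libraries differed in sex and in mitochondrial RNA. Xist, the RNA of the inactive X chromosome, or its overlapping antisense transcript Tsix was found in 4 of 896 Control neurons and in 355 of 512 WMI neurons (69.3%), and 232 WMI neurons held UMIs of these and of Y-linked genes. The WMI library thus held RNA of both sexes and the Control library almost only that of males. The median mitochondrial share was 0.0421% in Control and 0.294% in WMI neurons. Sex, mice and injury cannot be told apart across the whole libraries.

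Within the rule, Hs3st4 and the 2 easily detected genes did most of the selecting. The median Hs3st4 count was 22 UMIs in both libraries, with a highest count of 123 in Control and 183 in WMI. Htr1f was present in 95.3% of Control and 92.0% of WMI neurons, and Tle4 in 94.6% and 96.3%. Syt6 was present in 45.3% of Control and 26.4% of WMI neurons, and Col5a1 in 49.1% and 43.6%. All 4 genes were found together in 256 Control neurons (28.6%) and 75 WMI neurons (14.6%), while 396 (44.2%) and 289 (56.4%) entered with exactly 2. Before these conditions, 1747 Control and 1137 WMI barcodes reached 5 Hs3st4 UMIs, and the Gad limit then removed 42 and 37.

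Of the genes that the rule did not use, several known from corticothalamic neurons were more abundant in the selected neurons than in the other excitatory barcodes of the same library. Of the 12 such markers, 10 had a log2 ratio above 0 in Control and 11 in WMI, with the interval clear of 0 for 7 and 10 of them and, for Fam84b in Control (-1.47, on 8 UMIs), below 0. A level here is a gene's UMIs summed over the neurons of a library and scaled to a fixed total of UMIs (CPM). Foxp2 was at 373 CPM in Control and 225 CPM in WMI, a log2 ratio of 2.49 and 2.51 over the other excitatory barcodes. Garnl3, a GTPase-activating protein gene, stood 1.51 and 1.17 higher on the log2 scale. Zfpm2, which encodes a partner of GATA factors, stood 1.36 and 0.90 higher. The ratios were smaller for Crym (1.02 and 0.91), Sox5 (0.52 and 0.67) and Tbr1 (0.49 and 0.99).

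The corticothalamic markers Ntsr1 and Rprm were close between the sets in Control. Ntsr1, the neurotensin receptor used to mark these neurons in adult mice, stood at 11.6 CPM in Control and 12.2 CPM in WMI, with log2 ratios of 0.14 (-0.16 to 0.43) and 0.42 (0.06 to 0.76). Rprm was at 5.01 and 5.22 CPM, with ratios of -0.16 and 0.54 (-0.02 to 1.08 in WMI). Nxph3, which encodes a neurexophilin, had ratios of 0.10 and 1.48, Sla 1.02 and 0.76 and Trbc2 0.23 and 0.73. Among the rule-free genes, the retinoic acid-induced gene Rai14 stood out (2.39 and 2.28), with the cadherin Cdh18 (2.15 and 2.62), the receptor kinase Ror2 (2.44 and 2.19) and the kainate receptor subunit Grik3 (2.12 and 1.84). In total 52 of 8281 genes with at least 200 UMIs (0.628%) were at least 2-fold higher in both libraries and 112 (1.35%) at least 2-fold lower. Nothing is read from these counts, since the rule chose the neurons on the same UMIs.

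Free RNA was common in these libraries. After each barcode was thinned to 3000 UMIs, Foxp2 was found in 52.8% of selected neurons in Control and 38.0% in WMI, and unthinned in 75.2% and 62.3%. Microglia-like barcodes, which should not transcribe Foxp2, held it after thinning in 20.1% and 15.8% (median depth before thinning 3381 and 3420.5 UMIs), and other excitatory barcodes in 18.3% and 10.8%. The share in the selected neurons was above this background and that of the other excitatory barcodes was within its interval in Control (14.5 to 26.7) and below it in WMI. Ntsr1 was found in 3.38% of selected neurons and 3.35% of microglia-like barcodes in Control, so that its share was at background there. In WMI it was found in 3.73% (2.26 to 5.76) of selected neurons, 2.37% of other excitatory barcodes and 0.977% (0.423 to 1.92) of microglia-like barcodes, above the background. Crym was found in 11.05% and 11.96% of selected neurons against 3.91% and 5.13% of microglia-like barcodes. Hs3st4 was found in 54.2% and 43.5% of microglia-like barcodes.

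The selected neurons were a mixture, as seen when the 1408 barcodes of both libraries were divided into 8 clusters by k-means on 15 principal components of 1500 variable genes, without mitochondrial genes, Xist, Tsix and Y-linked genes. A cluster's leading genes, other than the genes left out, define it and are not results. Cluster 1, with 408 Control and 110 WMI neurons, was led by Syt6, Foxp2, Col5a1, Kctd8 and Garnl3 and is the only one named here, as layer 6 corticothalamic-like. The corticothalamic markers outside the rule, which include its leading genes Foxp2, Garnl3 and Zfpm2, summed to 4902 CPM in its Control and 5041 CPM in its WMI neurons. They summed to 3773 and 3336 CPM in cluster 4, to 2220 and 2553 CPM in cluster 5 and to 841 and 757 CPM in cluster 3. It stayed together when 6 or 10 clusters were asked for (99.4% and 98.5% of its neurons), and with 12 clusters the group with the most Syt6 held 42.5% of it.

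**Figure D1:**
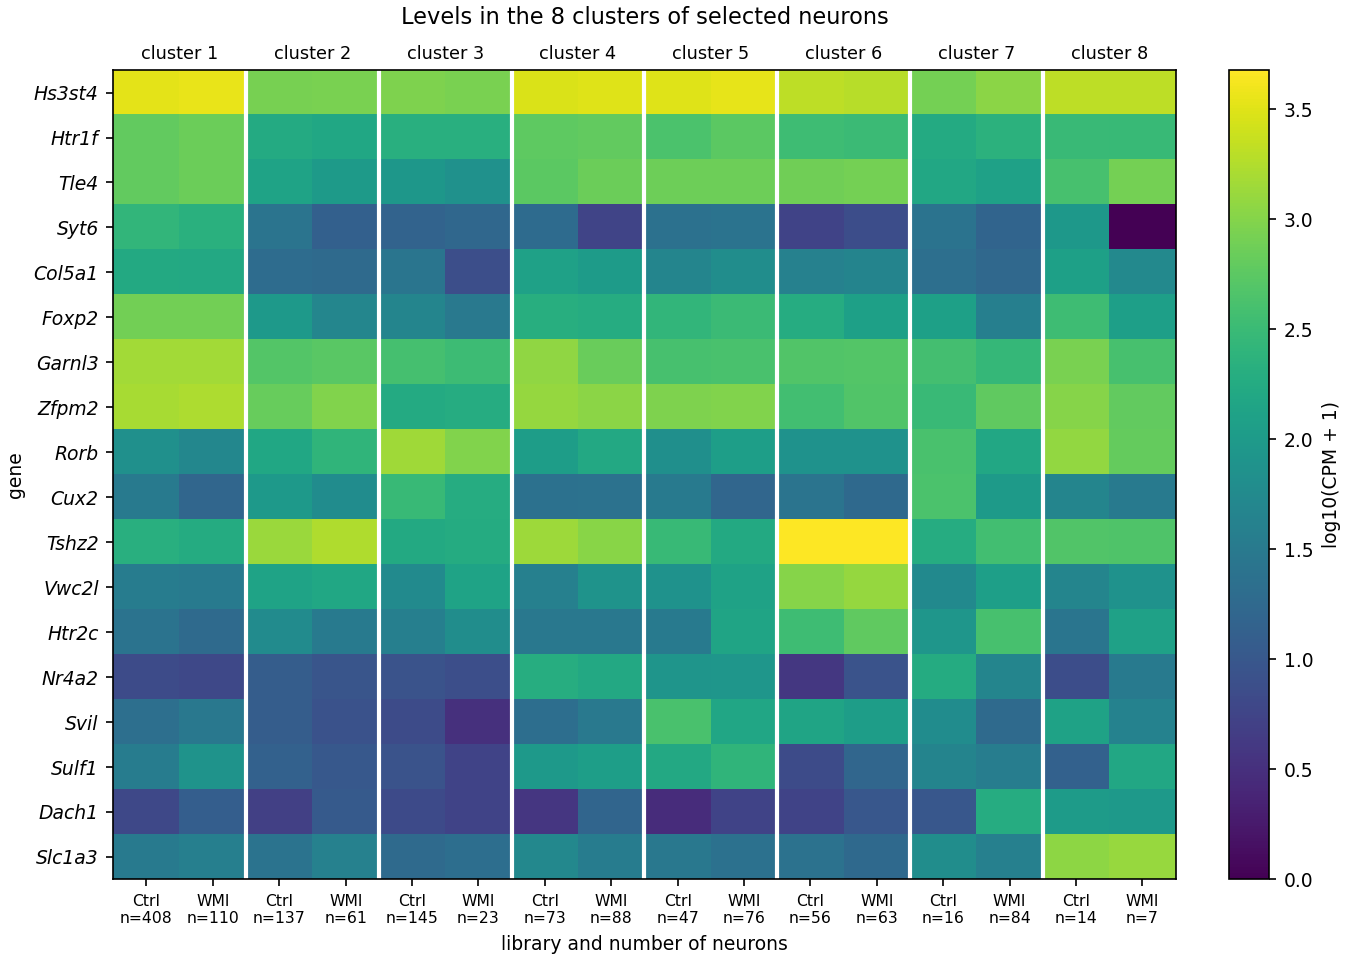
Level of 18 genes (rows, log10 of CPM plus 1, colour scale) in the 8 clusters of Hs3st4-selected neurons, Control (Ctrl) and WMI side by side with the number of neurons in each. Syt6 and Foxp2 are high together in cluster 1, Rorb in cluster 3 and Tshz2 with Vwc2l in cluster 6, in both libraries.

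The other 7 clusters carried Hs3st4, Htr1f and Tle4 with genes of other populations to differing extents. In cluster 4 the corticothalamic markers outside the rule (3773 CPM in Control and 3336 CPM in WMI) were above the near-projecting markers (1436 and 1149 CPM). Cluster 2 (137 Control and 61 WMI neurons) was led by Il1rapl2, Gpc6 and Ptprm, and its Foxp2 level was 98.1 CPM in Control and 48.4 CPM in WMI. Cluster 3 (145 and 23) was led by Rorb, with Cux2, Thsd7a and Whrn among its 15 leading genes. Rorb, a nuclear receptor of layer 4, reached 1408 CPM in Control and 944 CPM in WMI in this cluster, against 69.5 and 49.2 CPM in cluster 1. Syt6 there was at 13.8 and 15.7 CPM.

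Clusters 4, 5 and 6 held more Hs3st4 per UMI than clusters 2 and 3, and their Syt6 level was at most 24.5 CPM. Cluster 4 (73 and 88) was led by Cobll1, Rxfp1 and Brinp3, with Nr4a2, a nuclear receptor of deep-layer neurons, at 193 CPM in Control and 163 CPM in WMI. Xist was also among its leading genes, although it was left out of the clustering. The part of the difference between libraries in this cluster was not tested. Cluster 5 (47 and 76) was led by Svil and Sulf1. The 10 layer 6b markers, which include its leading genes Svil and Inpp4b, summed to 2152 and 1302 CPM there against 253 and 264 CPM in cluster 1. Cluster 6 (56 and 63) was led by Kcnip1 and Vwc2l, with Tshz2 and Lypd1 among its leading genes. Its Tshz2 level of 4752 CPM in Control and 4651 CPM in WMI compares with 206 and 183 CPM in cluster 1.

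Cluster 7 held 16 Control and 84 WMI neurons and was led by Cntnap5c and Dach1. Dach1, a transcription cofactor gene, was at 9.07 CPM in its Control neurons and at 188 CPM in its WMI neurons. The cluster was mostly of 1 library, and whether it is a population was not tested. Cluster 8 (14 and 7) was led by the astrocyte gene Slc1a3 and by Glis3, and doublet simulation marked 57.1% and 85.7% of its barcodes, against 8.58% and 4.55% in cluster 1. The predicted doublets were 37.5% and 22.6% in cluster 7, 24.8% and 16.4% in cluster 2 and 20.0% and 8.70% in cluster 3, and their part in the genes of other populations found there was not tested.

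The Hs3st4 count itself sorted the same genes. From 5 to 9 up to 40 or more Hs3st4 UMIs, Foxp2 went from 81.5 over 200.5 and 475 to 621 CPM in Control, and from 75.2 over 104 and 230.1 to 369 CPM in WMI. Syt6 went from 20.4 to 192 CPM in Control and from 15.9 to 66.5 CPM in WMI. Rorb was lowest at 40 or more Hs3st4 UMIs, at 181 CPM in Control after 492, 642 and 336 CPM in the lower bins, and at 134 CPM in WMI after 271, 263 and 179 CPM. Cux2 went from 197 to 51.4 CPM and from 112 to 28.5 CPM. Tshz2 was also lowest at 40 or more Hs3st4 UMIs, at 519 CPM in Control and 634 CPM in WMI, and highest at 10 to 19 in Control (980.4 CPM) and at 20 to 39 in WMI (1409 CPM). The bins held 190, 215, 301 and 190 neurons in Control and 109, 124, 147 and 132 in WMI.

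**Figure D2:**
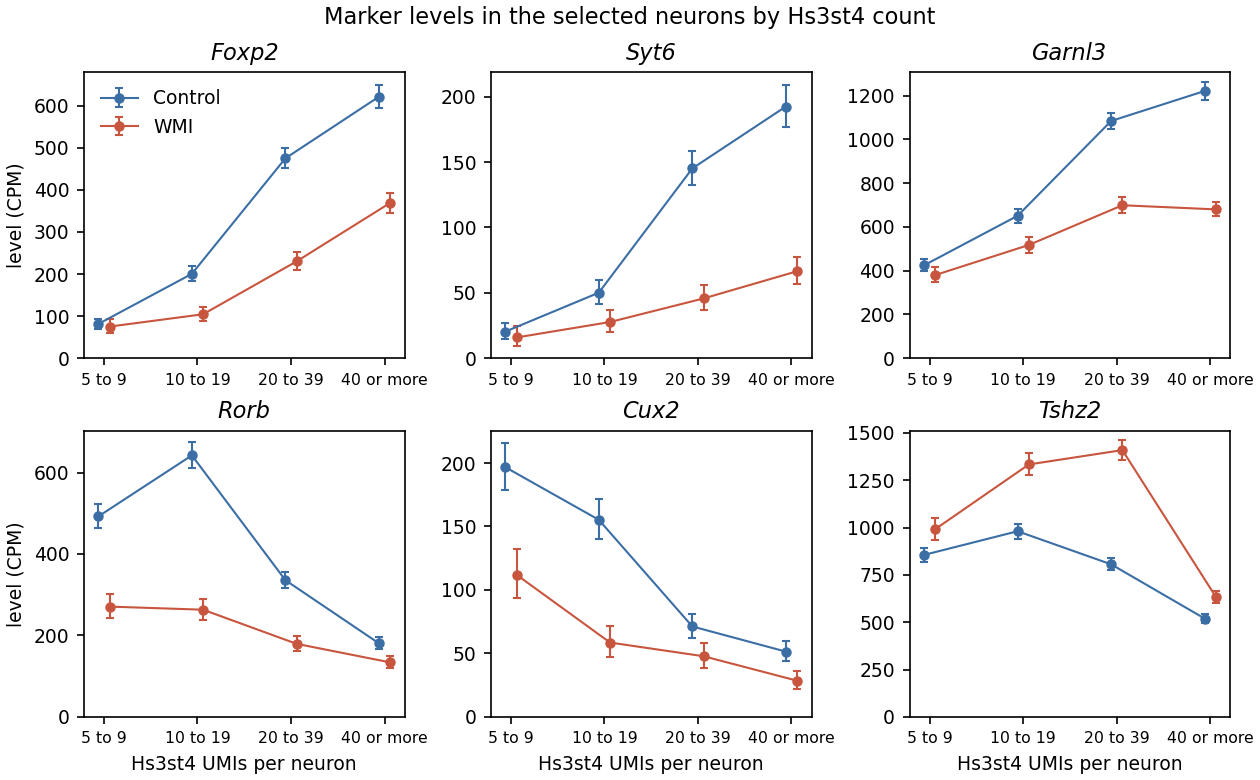
Level (CPM, y axis) of 6 genes in Hs3st4-selected neurons by the number of Hs3st4 UMIs per neuron (x axis), Control and WMI, with 95% Poisson intervals. Foxp2 and Syt6 are highest at 40 or more Hs3st4 UMIs, and Rorb and Cux2 are lowest there.

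At exactly 5 Hs3st4 UMIs, Foxp2 stood at 49.9 CPM in the 57 Control neurons and 58.9 CPM in the 33 WMI neurons. In barcodes with 4 Hs3st4 UMIs that met every other condition it stood at 53.2 CPM (89 barcodes) and 39.3 CPM (38 barcodes). Syt6 stood at 18.7 and 16.1 CPM inside and at 19.8 and 9.35 CPM outside, and Rorb at 493 and 257 CPM inside and at 319 and 251 CPM outside.

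The number of the 4 genes found divided the neurons in the same way. In Control, Foxp2 stood at 117 CPM in neurons with 2 of the genes, at 467 CPM with 3 and at 716 CPM with all 4, and in WMI at 83.7, 266 and 781 CPM. Rorb stood at 637, 258 and 108 CPM in Control and at 256, 139 and 49.3 CPM in WMI. Neurons with all 4 genes made up 55.4% of cluster 1 in Control and 53.6% in WMI, an overlap that follows from its leading genes Syt6 and Col5a1. No Foxp2 UMI was found in 222 Control neurons (24.8%) and 193 WMI neurons (37.7%).

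Hs3st4-selected neurons were a smaller share of the WMI library. They made up 9.39% of passing barcodes in Control (95% Clopper-Pearson interval 8.81 to 10.0) and 6.31% in WMI (5.79 to 6.86), a difference of -3.08 percentage points (-3.88 to -2.28). Of excitatory barcodes they made up 14.5% and 10.5%, a difference of -3.98 points. Cluster 1 made up 4.28% in Control (3.88 to 4.70) and 1.36% in WMI (1.12 to 1.63), a difference of -2.92 points. Clusters 2 and 3 were also smaller in WMI, at 1.44% and 0.752% and at 1.52% and 0.283%. Cluster 7 was larger, at 0.168% and 1.04%, as were cluster 4 (0.765% and 1.08%) and cluster 5 (0.493% and 0.937%). The selected neurons outside cluster 1 made up 5.12% and 4.96%, a net of these opposite differences of -0.16 points with an interval of -0.81 to 0.50. Without cluster 7 as well, they made up 4.95% and 3.92%, a difference of -1.03 points (-1.64 to -0.41). By the rule alone, neurons with all 4 genes made up 2.68% in Control and 0.924% in WMI, and those with 2 or 3 made up 6.71% and 5.39%. Both subsets rest on Syt6 and Col5a1 UMIs, so fewer such neurons and less Syt6 per neuron cannot be told apart.

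**Figure D3:**
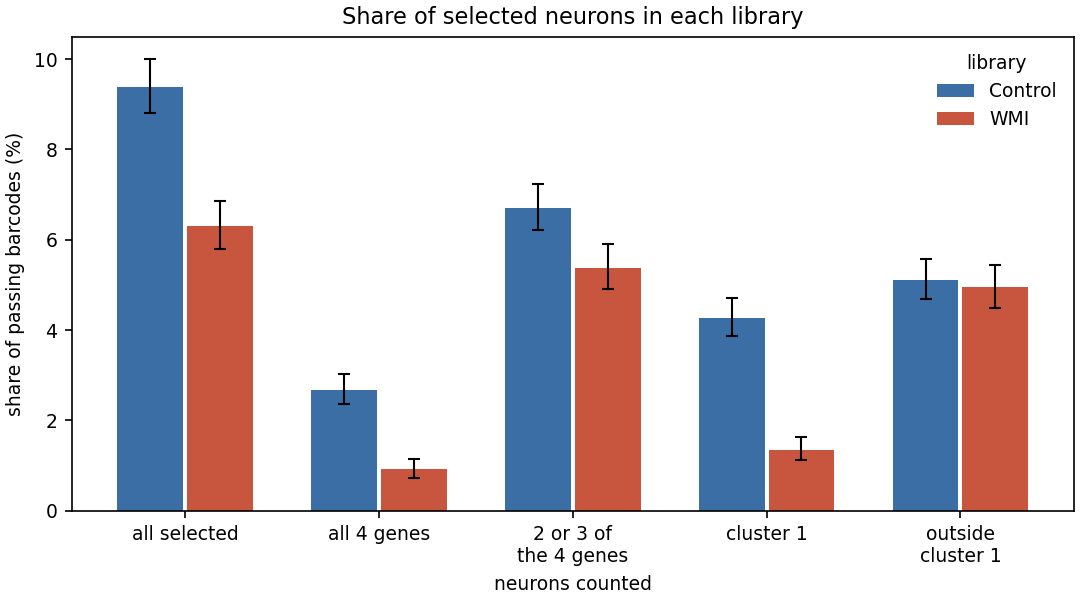
Share of passing barcodes (percent, y axis) that were Hs3st4-selected neurons, and that belonged to 4 subsets of them (x axis), in Control and WMI. Error bars are 95% Clopper-Pearson intervals, and the shares outside cluster 1, 5.12% and 4.96%, have overlapping intervals and are a net of clusters that were smaller and larger in WMI.

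These shares rest on 1 library of each kind. Within cluster 1 the level of Foxp2 was 789.8 CPM in Control and 796 CPM in WMI, and that of Syt6 was 262 and 214 CPM. Both are leading genes that define cluster 1, so these levels are a description and nothing about the shares is read from them. Microglia-like barcodes numbered 278 in Control and 1382 in WMI. They are counted among passing barcodes and not among excitatory barcodes, and their part in the shares was not tested. Cluster 1 made up 6.60% of excitatory barcodes in Control and 2.26% in WMI. How tissue was dissected and which neurons survived dissociation was not tested.

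Across all selected neurons, 111 of 8281 genes with at least 200 UMIs were at least 2-fold higher in WMI (1.34%) and 55 at least 2-fold lower (0.664%). The median log2 ratio of WMI over Control was 0.00, with 5% of genes below -0.47 and 5% above 0.55. Other excitatory barcodes, which come from the same libraries, had 93 genes higher (1.12%) and 44 lower (0.531%). Of the 111 genes, 65 were also at least 2-fold higher there and all 111 were above 0. Of the 55 genes, 29 were also at least 2-fold lower there and 54 were below 0.

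The 10 highest ratios included Xist and Tsix, several transcripts of glial and myeloid cells, Dach1 and Gm45323. Xist had 0 UMIs in Control and 4355 in WMI, at least 2226-fold higher against 3 counts over the Control neurons, and Tsix, which overlaps it, had 4 and 291 UMIs (log2 ratio 6.80, 5.43 to 8.69). Spp1, which encodes osteopontin and is made by activated myeloid cells, had 1 and 235 UMIs (8.49, interval 6.00 to 13.8). Gfap of astrocytes was at 1.79 CPM in Control and 25.8 CPM in WMI (3.85), and the lipoprotein gene Apoe at 45.7 and 434 CPM (3.25). The lysosomal protease Ctsd was at 24.7 and 169 CPM (2.77), the complement gene C1qa at 6.00 and 39.4 CPM (2.72) and Ly86 at 3.85 and 22.5 CPM (2.55). In other excitatory barcodes the same ratios were 8.45 for Spp1, 3.79 for Gfap, 3.19 for Apoe, 2.96 for Ctsd, 2.50 for C1qa and 2.13 for Ly86. Dach1 (3.07) and the long noncoding RNA Gm45323 (2.49) had lower values there, 1.53 and 1.46. Dach1 is a leading gene of cluster 7, which held 16 Control and 84 WMI neurons.

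The lowest ratios belonged to 6 long noncoding or antisense transcripts and 4 protein-coding genes. The noncoding Gm26906 was at 58.4 CPM in Control and 12.6 CPM in WMI (log2 ratio -2.21), and Gm20752 at 50.8 and 14.6 CPM (-1.80). Gm20752 is a leading gene of cluster 3, which held 145 Control and 23 WMI neurons. Its ratio in other excitatory barcodes was -1.34. Of the protein-coding genes, the membrane protein gene Lrtm1 was at 24.6 and 7.28 CPM (-1.76), against -1.74 in other excitatory barcodes. Arhgap29, a GTPase-activating protein gene, was at 15.6 and 4.94 CPM (-1.66), against -0.19 there. Mobp, a myelin gene, was at 19.1 and 7.00 CPM (-1.45), against -0.76. The others were the protein-coding Gm12394 and the antisense 4930567K12Rik, Gm15083, Gm16183 and 4930587E11Rik, from -1.64 to -1.43. Antisense transcripts and the genes they overlap were told apart only as far as the counting used strand.

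Of 6 rule genes tested, only Syt6 was at least 2-fold lower in WMI, where 0.664% of all genes tested were lower. None of 8 tested corticothalamic markers outside the rule was past 2-fold. Syt6, Foxp2, Garnl3 and Col5a1 are given here also for neurons with all 4 genes and for cluster 1. Neurons with all 4 genes were chosen for a Syt6 and a Col5a1 UMI, and Syt6, Foxp2, Col5a1 and Garnl3 define cluster 1. A ratio nearer 0 of these genes in either subset is therefore set at least in part by the choice of neurons and is a description. Syt6 was at 111 CPM in Control and 44.1 CPM in WMI (log2 ratio -1.34, interval -1.52 to -1.16). In neurons with all 4 genes its ratio was -0.39 (-0.61 to -0.17) and in cluster 1 it was -0.29 (-0.50 to -0.09). Foxp2 had a ratio of -0.73 (-0.81 to -0.64) over all selected neurons, 0.13 (0.00 to 0.25) in those with all 4 genes and 0.01 (-0.10 to 0.12) in cluster 1. Garnl3 gave -0.57, -0.21 and -0.04 in the same order. Col5a1 gave -0.57, -0.06 and -0.04. In other excitatory barcodes Foxp2 gave -0.75 (-0.85 to -0.65), Syt6 -0.86 (-1.12 to -0.60) and Col5a1 -0.37 (-0.63 to -0.11). In neurons with exactly 3 of the 4 genes, a subset also set by Syt6 and Col5a1 UMIs, Foxp2 gave -0.81, Syt6 -1.26 and Col5a1 0.08. In those with exactly 2, Foxp2 gave -0.48 and Syt6 -0.57 (-1.44 to 0.25, on 36 and 20 UMIs).

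**Figure D4:**
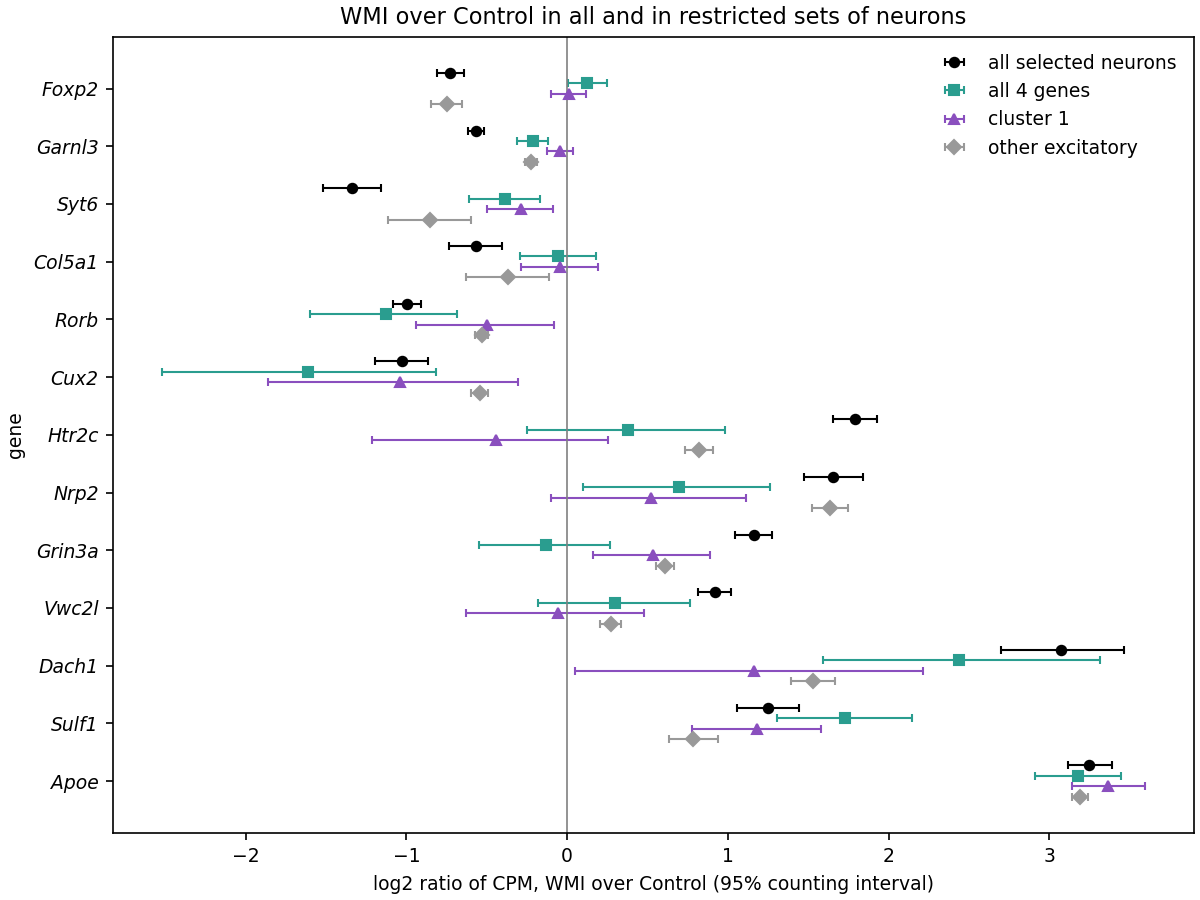
Log2 ratio of CPM, WMI over Control (x axis, 95% counting intervals), of 13 genes (y axis) in all Hs3st4-selected neurons, in those with all 4 genes, in cluster 1 and in other excitatory barcodes. Foxp2 moves from -0.73 over all selected neurons to 0.01 in cluster 1, which it helps to define, and Htr2c from 1.79 to -0.44, while Apoe stays near 3.

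Htr2c, Nrp2, Grin3a, Sulf1 and Dach1 were at least 2-fold higher in WMI over all selected neurons, where 1.34% of all genes tested were higher. Vwc2l stayed below 2-fold. They are single genes and were not tested as a group. Htr2c, the serotonin 2C receptor, was at 56.0 CPM in Control and 194 CPM in WMI (log2 ratio 1.79), and its ratio was 0.38 (-0.25 to 0.98) in neurons with all 4 genes and -0.44 (-1.21 to 0.26) in cluster 1. Nrp2, a semaphorin receptor, gave 1.66, 0.69 and 0.52. Grin3a, an NMDA receptor subunit, gave 1.16, -0.13 and 0.53. Vwc2l, a marker of near-projecting neurons, gave 0.92, 0.30 and -0.06. In neurons with exactly 2 of the genes Htr2c gave 1.62 and Grin3a 0.95, and in those with exactly 3 they gave 1.84 and 1.68. Htr2c, Vwc2l, Nrp2, Sulf1, Dach1, Rorb and Cux2 are leading genes of other clusters, so the clustering itself bears on their ratios in cluster 1. Sulf1, an extracellular sulfatase that removes 6-O-sulfates from heparan sulfate, kept its direction, with 1.25 (1.05 to 1.44) over all, 1.73 (1.31 to 2.15) on 97 and 98 UMIs with all 4 genes and 1.18 (0.77 to 1.58) in cluster 1. Dach1 gave 3.07, 2.43 and 1.16, the latter on 22 and 13 UMIs.

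Rorb and Cux2 also kept their direction. Rorb gave -0.999 (-1.09 to -0.91) over all selected neurons, -1.13 (-1.60 to -0.69) with all 4 genes and -0.50 (-0.94 to -0.08) in cluster 1, and Cux2, a transcription factor of upper layers, gave -1.03, -1.61 and -1.04 on 132 and 17 UMIs in cluster 1. In other excitatory barcodes the ratios were -0.53 and -0.54. Whether free RNA of layer 4 neurons contributed was not tested.

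In cluster 1, 18 of 3804 genes with at least 200 UMIs there were at least 2-fold higher in WMI (0.473%) and 22 lower (0.578%). In neurons with all 4 genes 19 of 3009 were higher (0.631%) and 17 lower (0.565%). Over all selected neurons the shares were 1.34% and 0.664%, on more genes of lower level. The following genes were named after their values were seen. Of the higher genes in cluster 1, 9 were mitochondrial, led by mt-Nd3 (2.99) and mt-Cytb (2.61), and Xist, Apoe (3.36), Ctsd (2.70) and Ctsb (1.82) were also found. Further higher genes were Itm2c (1.35), Epb41l2 (1.25), Sulf1 (1.18) and Hspa5 (1.11), the last an endoplasmic reticulum chaperone. In neurons with all 4 genes, the transcription factors Zbtb20 (1.57) and Sox6 (1.22) and the ephrin receptor Epha3 (1.26) were higher, and the potassium channel gene Kcnh5 (-1.35), Glp2r (-1.59) and the glypican Gpc5 (-1.27) lower. Kcnh5 is a leading gene of cluster 3, Gpc5 of cluster 8 and Zbtb20 of clusters 7 and 8. Clusters 3 and 8 held 5 and 4 Control neurons with all 4 genes and 0 WMI neurons with all 4.

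Most lists of receptors and channels had medians near 0 in all selected neurons. Of 14 ionotropic glutamate receptor genes tested, Grin3a was at least 2-fold higher and none lower, where 1.34% of all genes tested were higher and 0.664% lower, with a median log2 ratio of -0.01. The median was 0.02 over 6 metabotropic glutamate receptors and 0.01 over 11 GABA-A receptor subunits, with no gene past 2-fold. Of the GABA-A subunits, Gabra5 (0.85) and Gabra2 (0.80) had the highest ratios. Of 5 serotonin receptors, Htr2c was higher and the median was 0.50, and Htr1f of the rule had a ratio of -0.02. Over 4 acetylcholine receptors the median was 0.30. Over 20 voltage-gated potassium and Hcn channels it was -0.07, with Kcnh5 (-0.71) and Kcnh1 (-0.63) lowest, and over 15 sodium and calcium channels -0.04. Kcnh5 is a leading gene of cluster 3, which was smaller in WMI. The median of all genes tested was 0.00.

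Heparan sulfate genes, the family of Hs3st4, had a median of 0.00 over 18 genes tested. Hs3st4 was at 2156 CPM in Control and 2131 CPM in WMI (log2 ratio -0.02, -0.05 to 0.01). The rule chose the neurons for at least 5 Hs3st4 UMIs, so this ratio is set in part by the choice and is a description. In other excitatory barcodes the ratio of Hs3st4 was -0.24 (-0.27 to -0.20). In the selected neurons Hs3st5 had a ratio of -0.23 and Hs3st2 of 0.17. Sulf1 was at least 2-fold higher and no gene was 2-fold lower, beside 1.34% and 0.664% of all genes tested, with Hs6st3, a 6-O-sulfotransferase, lowest at -0.52. Relative to other excitatory barcodes, Hs3st5 stood 1.17 and 1.16 higher and Hs3st2 0.79 and 1.03 higher on the log2 scale in Control and WMI. Among 13 synaptotagmins the median was 0.12, with Syt9 higher (1.08) and Syt6 lower, beside the same shares. Col24a1, one of 3 fibrillar collagen genes tested, had a ratio of -0.98 (-1.21 to -0.77), and -0.85 in cluster 1.

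**Figure D5:**
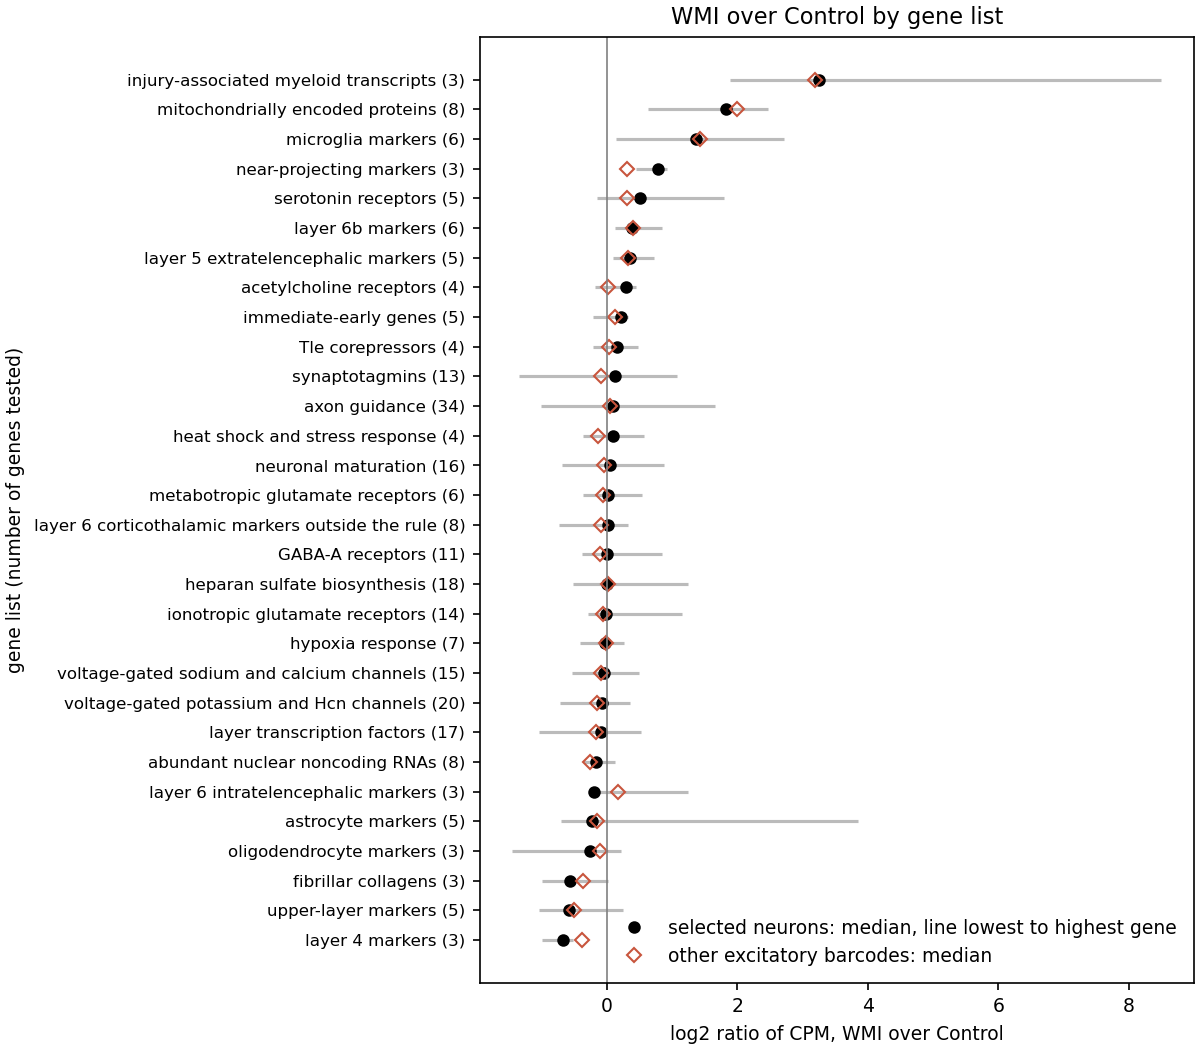
Log2 ratio of CPM, WMI over Control (x axis), for 30 gene lists with at least 3 genes tested (y axis): median in Hs3st4-selected neurons (points), lowest to highest gene (lines) and median in other excitatory barcodes (diamonds). Mitochondrial, microglial and myeloid lists lie above 1 in both, and receptor and channel lists have medians from -0.07 to 0.50.

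Axon guidance genes had a median of 0.09 over 34 tested. Past 2-fold were 1 higher gene, Nrp2, and 1 lower gene, Robo3 (-1.003), beside 1.34% and 0.664% of all genes tested. Nothing is read from counts of 1 gene. Robo3 encodes a receptor of the Robo family that guides commissural axons. Slit2 (0.74 against -0.01 in other excitatory barcodes), Epha3 (0.70 against 0.09), Epha5 (0.53 against 0.06), Ephb1 (-0.68 against -0.14) and Nrp1 (0.00 against 0.84) had ratios unlike those of the other excitatory barcodes. They were named out of the 34 for this difference, after the values were seen. No test of these differences was possible. Ephb1 is a leading gene of cluster 1, which was 45.5% of selected neurons in Control and 21.5% in WMI. The part of the clusters in these ratios was not tested. In cluster 1 the ratio of Epha6, another ephrin receptor, was 0.04, compared with 0.86 over all selected neurons. Neuronal maturation genes had a median of 0.06 over 16, from Nefl (-0.68) to Sox11 (0.88).

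Layer transcription factors had a median of -0.09 over 17 genes, with Cux2 the only one past 2-fold, where 0.664% of all genes tested were lower and 1.34% higher. Sox5 (0.17), Bcl11b (0.13), Fezf2 (0.36) and Tbr1 (-0.28) lay closer to 0. Bcl11b was more abundant in the selected neurons than in other excitatory barcodes, by 1.68 and 1.25 on the log2 scale. The 3 tested near-projecting markers had a median of 0.79 against 0.31 in other excitatory barcodes, the 3 layer 4 markers -0.67 against -0.38 and the 6 layer 6b markers 0.39 against 0.41. The make-up of the selected neurons differed between the libraries. Cluster 3, led by Rorb, was 16.2% of them in Control and 4.49% in WMI. Cluster 6, with Tshz2 and Vwc2l among its leading genes, was 6.25% and 12.3%. Its part in the marker ratios given here, and that of the other clusters, was not tested. The median of 8 corticothalamic markers outside the rule was 0.02. It was -0.58 over 5 upper-layer markers, where Cux2 was past 2-fold, 0.36 over 5 layer 5 extratelencephalic markers and -0.19 over 3 markers of layer 6 neurons projecting within the cortex, where Sulf1 was past 2-fold. Of interneuron and of striatal projection neuron markers 2 each were tested, with medians of 0.09 and 0.06. Over 4 Tle corepressors it was 0.15 and over 8 abundant nuclear noncoding RNAs -0.17.

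None of the 16 stress and activity genes tested was past 2-fold, where 1.34% of all genes tested were higher and 0.664% lower, so a count of 0 is near that share. The median was 0.22 over 5 immediate-early genes, -0.03 over 7 hypoxia response genes and 0.09 over 4 heat shock and stress genes. Homer1 (0.21), Hif1a (0.24) and Vegfa (-0.40) were among them. Of the endothelin system, on which the study centred, only the converting enzyme Ece1 reached 200 UMIs, at 71.4 CPM in Control and 55.4 CPM in WMI (-0.37, -0.54 to -0.19). The receptor Ednrb had 103 and 57 UMIs (-0.24, -0.73 to 0.24), and the ligand Edn1 had 5 and 3 UMIs, too few to compare. After thinning, Ednrb was found in 3.61% and 3.14% of selected neurons and in 6.70% and 9.77% of microglia-like barcodes. Its share was thus not above that background.

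Mitochondrially encoded transcripts were higher in WMI, with 7 of 8 tested genes past 2-fold, against 1.34% of all genes tested, and a median of 1.83 against 1.99 in other excitatory barcodes. Their summed level was 897 CPM in Control and 3364 CPM in WMI. Microglia markers had 5 of 6 tested genes past 2-fold, with a median of 1.37 against 1.42, a summed level of 86.7 CPM in Control and 237 CPM in WMI over 7 genes, and none at 0 in either library. Of the 8 injury-associated myeloid genes 3 were tested and all 3 were past 2-fold, with a summed level of 58.5 and 531 CPM and Apoe the most abundant and none at 0. Among 5 tested astrocyte markers, of which Slc1a2 was the most abundant, Gfap was higher and the median was -0.23, with a summed level of 965 and 858 CPM. Among 3 oligodendrocyte markers the median was -0.26, with summed levels of 196 and 169 CPM. Of oligodendrocyte precursor markers only Vcan was tested (0.26), and the 8 vascular and fibroblast markers, none of which reached 200 UMIs, summed to 12.3 and 16.1 CPM with 1 gene at 0 in each library. Their part in the gene ratios above was not tested. In cluster 1 the microglia markers summed to 91.0 CPM in Control and 277 CPM in WMI.

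Within the WMI library, male neurons (a Y-linked UMI and no Xist or Tsix) were set beside neurons with Xist or Tsix. Of the 355 neurons with Xist or Tsix, 232 also held Y-linked UMIs. They are therefore not a set of female neurons, and the comparison does not cleanly separate the sexes. Spp1 was at 30.8 CPM in the 144 male neurons and 31.7 CPM in the 355 neurons with Xist or Tsix, Dach1 at 49.5 and 53.6 CPM and Apoe at 446 and 426 CPM. Gfap was at 16.4 and 29.9 CPM (log2 ratio 0.87, 0.33 to 1.45), higher in the neurons with Xist or Tsix. Gm20752 was at 27.9 and 9.38 CPM (-1.57, -2.15 to -0.99), so that its level in male WMI neurons was less than 2-fold under the 50.8 CPM of Control. Syt6 was at 55.8 and 38.9 CPM (log2 ratio -0.52, -0.86 to -0.18) and Foxp2 at 276 and 203 CPM (-0.44, -0.59 to -0.29), higher in the male neurons in both cases. Against the 822 male Control neurons, the male WMI neurons had 117 of 8281 genes at least 2-fold higher and 100 lower. Of these, 89 and 37 were among the 111 higher and 55 lower genes of all selected neurons.

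The genes that varied most among the selected neurons included the cluster genes Tshz2 and Il1rapl2. With each neuron thinned to 3000 UMIs, the variance over the mean was highest for Malat1 (9.76 in Control and 9.99 in WMI), followed by Tshz2 (9.91 and 9.26) and the glycosyltransferase gene Mgat4c (8.91 and 11.9), by the lower of both libraries. Kcnip4, Lsamp, Il1rapl2, Galntl6, Rbfox1, Lrrtm4 and mt-Cytb completed the 10 highest. The median over 3907 genes was 1.07 in both. Tshz2 was found in 42.5% of thinned Control and 50.6% of thinned WMI neurons, and Malat1 in 100% of both. Foxp2 (2.26 and 2.51), Garnl3 (2.37 and 2.49) and Rorb (5.52 and 3.55) had higher values than Syt6 (1.58 and 1.76). Syt6 also had the lowest mean of these genes, 0.40 and 0.18 UMIs against 1.27 and 0.85 for Foxp2. No order of variation is therefore read from these values.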

How the data were processed

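The authors deposited 1 UMI count table per library, made with Cell Ranger 6.1.1 according to the file headers and left without normalization. The submitters' processing notes also name Seurat and mm9, whereas the table's 55450 genes all carry the identifier and symbol of GENCODE M21 (GRCm38). Only 1 library of each group was analysed, fewer than the paper describes.

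UMIs were summed over the neurons of a library and divided by all their UMIs (CPM). Log2 ratios carry exact conditional binomial 95% intervals, levels Poisson and shares Clopper-Pearson intervals, which treat barcodes as independent. With 1 library per group no test was run, and a gene was counted when it differed at least 2-fold and had at least 200 UMIs over both libraries. A gene with 0 UMIs was given a bound of 3 counts. Depths stand in the report.

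Neurons were thinned to 3000 UMIs for shares and variance. Doublets were predicted from 2 simulated doublets per barcode (30 principal components, 30 neighbours, 0.8% per 1000 barcodes) and kept in the main values. Microglia-like barcodes held 3 of 7 microglial genes and no Slc17a7. A layer 5 set by Fezf2 and Bcl11b held 3 and 6 barcodes and was not used. Named genes are those of 37 gene lists, the 10 highest and 10 lowest ratios of WMI over Control, the 12 highest over other excitatory barcodes and the 10 most uneven genes. Others are marked where named, apart from the leading genes of clusters. The neurons, lists and rules were chosen with earlier results of these data known, and the clusters and the all-4-gene subset after the values were seen. The code for ratios and intervals was checked on simulated counts. Values of a few genes are not reported here. Scripts ran in Python 3.11.15, with scikit-learn 1.9.0 for clustering, scipy 1.17.1 for intervals, and numpy 2.4.6 and pandas 2.3.3 for tables.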

Additional observations from a re-analysis of the deposited data

How the results depend on the processing

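No paired analysis was possible because each group had 1 library. The share of selected neurons was lower in WMI under every alternative run. Of passing barcodes it was 12.1% in Control and 7.67% in WMI (difference -4.40 points) from 3 Hs3st4 UMIs, 10.3% in Control from 4, 8.79% in Control from 6, 7.40% and 4.97% from 10, 5.24% and 2.75% with at least 3 of the 4 genes, 2.68% and 0.924% (-1.76) with all 4, 4.28% and 1.36% in cluster 1, 8.81% in Control without predicted doublets, 13.2% and 8.27% (-4.98) among barcodes from 3000 UMIs, and 12.02% and 6.88% (-5.15) under a looser rule (2 Hs3st4 UMIs and 1 of the 4 genes) applied to barcodes thinned to 3000 UMIs, with shallower ones left out. Of excitatory barcodes it was 18.6% and 12.8% (-5.84) from 3 Hs3st4 UMIs, 15.9% in Control from 4, 13.6% in Control from 6, 11.4% and 8.28% from 10, 8.09% and 4.58% with at least 3 genes, 4.14% and 1.54% (-2.60) with all 4, 6.60% and 2.26% in cluster 1, 19.3% and 12.7% (-6.58) from 3000 UMIs, and 26.2% and 16.3% (-9.90) under the looser rule after thinning. The looser rule on thinned counts chose partly other neurons, and held 46.0% of the selected neurons in Control and 44.3% in WMI, which were 51.2% and 53.5% of those it chose.

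Genes at least 2-fold higher and lower in WMI, 111 and 55, became 177 and 101 with each neuron thinned, 439 and 786 without neurons holding glial transcripts (24 WMI neurons left), 192 and 115 from 100 UMIs, 55 and 16 from 500 UMIs, 19 and 17 with all 4 genes and 18 and 22 in cluster 1, where fewer genes reached 200 UMIs. Genes lower became 100 in male neurons. Scaling by the median ratio or without mitochondrial genes left 111 and 112 higher. Among the named ratios that were at least 2-fold over all selected neurons, the sign of 3 reversed, while smaller ratios changed sign more often: Syt9 (-0.62) without glial transcripts, Grin3a (-0.13) with all 4 genes and Htr2c (-0.44) in cluster 1. For these the cause was not tested. More ratios of WMI over Control were classed as moved (in size or sign) than as the same in 3 settings. These were cluster 1 (171 against 106), all 4 genes (185 against 92) and no glial transcripts (212 against 60). Fewer moved than stayed the same in male neurons (114 against 162), after thinning (103 against 175) and without predicted doublets (14 against 264). The subsets with all 4 genes, in cluster 1 and from 20 Hs3st4 UMIs were chosen after seeing the data. Neurons with all 4 genes numbered 75 in WMI, and sparse genes there have wide counting intervals.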
